A study of Homo sapiens with 3 samples.

Results

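The proteins of the cytosolic ribosome are encoded by a set of genes named RPL for the large subunit and RPS for the small subunit, and their histone marks were described here in HCC1599, an established human breast cancer cell line known as triple-negative. Members were the protein-coding genes on chromosomes 1 to 22 and X whose symbols are RPL or RPS with a number and at most 2 of the letters A, L and X, together with RPLP0, RPLP1, RPLP2 and RPSA. This rule gave 82 genes of 19970 protein-coding genes. Of these, 77 were taken as core ribosomal protein genes, 46 of the large and 31 of the small subunit. The 5 with the suffix L (RPL3L, RPL10L, RPL36AL, RPL39L and RPS27L) were kept apart as paralogs. The rule terms them retrocopy-like by the suffix alone, and their gene structure was not examined. The rule used names only and no measured value.

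The series holds 3 libraries from HCC1599 cells, which its design text calls MARCO-TST positive: H3K27ac precipitated with an Active Motif antibody, H3K4me3 precipitated with a Cell Signaling Technology antibody, and input chromatin without an antibody. All come from the same line with no treatment named in the labels, and there is 1 library per mark, so no value below has a replicate check and no test between groups was possible. The deposited data are 1 list of peaks per mark, called against the input. The lists hold 72895 H3K27ac peaks, with a median width of 865 bp among those on the chromosomes used, and 32045 H3K4me3 peaks, with a median of 1667 bp. Read depth and gene copy number are unknown from these lists, and the absence of a peak says only that the caller made no call. Of the markers of the labelled cell type, all 7 epithelial genes examined (among them EPCAM, CDH1 and KRT8) had both marks, and the progesterone receptor gene PGR had H3K4me3 only. The oestrogen receptor gene ESR1 had neither mark at its ends, but its long span held 5 H3K4me3 peaks, the widest of 3177 bp, and 18 H3K27ac peaks, so its ends alone do not describe the marks at this gene. None of 5 leukocyte, 4 fibroblast and 3 endothelial marker genes had either mark at its ends.

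Ribosomal proteins are needed in near-equal amounts in every growing cell, and their genes are among the most actively transcribed. H3K4me3, trimethylation of lysine 4 of histone H3, is found around the starts of active genes, and H3K27ac, acetylation of lysine 27, at active promoters and enhancers. Most vertebrate ribosomal protein mRNAs begin with a C followed by an unbroken run of pyrimidines, the 5′ terminal oligopyrimidine tract, through which the mTOR pathway controls their translation. The promoters themselves usually have a sharply placed start.

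The first bases of these genes are shown because they are the sequence feature that the members share and the naming rule did not use. RefSeq (GRCh38.p14) gave a promoter sequence, and with it a strand and an annotated start, for 62 of the 77 core genes and for 3 paralogs. Each line gives 40 bases before the annotated start and the first 25 transcribed bases, 5′ to 3′ on the gene's own strand. Capitals mark a run of at least 5 pyrimidines, counted from a C at the annotated start or within 5 bases of it. The base before that C was not considered.
RPL39, chrX:119791606-119791670, minus strand: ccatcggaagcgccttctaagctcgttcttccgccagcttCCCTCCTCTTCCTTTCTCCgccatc
RPL7A, chr9:133348178-133348242, plus strand: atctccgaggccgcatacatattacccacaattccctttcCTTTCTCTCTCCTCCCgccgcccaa
RPS6, chr9:19380212-19380276, minus strand: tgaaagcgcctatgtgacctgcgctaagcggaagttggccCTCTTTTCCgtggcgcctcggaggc
RPS12, chr6:132814529-132814593, plus strand: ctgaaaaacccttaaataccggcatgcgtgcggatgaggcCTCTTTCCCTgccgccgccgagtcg
RPLP1, chr15:69452778-69452842, plus strand: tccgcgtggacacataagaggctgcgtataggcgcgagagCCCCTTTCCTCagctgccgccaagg
RPL22, chr1:6199571-6199635, minus strand: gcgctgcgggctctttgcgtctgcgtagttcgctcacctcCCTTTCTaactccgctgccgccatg
RPS4X, chrX:72277224-72277288, minus strand: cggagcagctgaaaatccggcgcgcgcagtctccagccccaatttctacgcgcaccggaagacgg

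RPL39 and RPL7A had the longest tracts, of 19 and 16 pyrimidines, RPS6 and RPS12 are typical ones, and RPLP1 encodes an acidic stalk protein. RPL22 and RPS4X are shown because their H3K27ac scores were the lowest of the core genes, the first with a tract and the second without. C was the annotated first base at 46 of 62 core genes (74.2%). The same base stood first at 11.6% of 9120 other protein-coding genes with both marks within 1 kb of their start and at 11.0% of all 15746 other genes with a promoter sequence. At 42 core genes (67.7%) this C opened a run of at least 5 pyrimidines, against 5.21% and 4.36% in those groups. Allowing 5 bases either side of the annotated start raised this to 50 of 62 (80.6%), against 22.4% and 21.9%. The tracts ran from 5 to 19 bases with a median of 8.

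The 12 core genes without such a tract in the annotated sequence were RPL6, RPL9, RPL10, RPL13, RPL15, RPL17, RPL27, RPS4X, RPS15, RPS26, RPS27A and RPS29. Their marks overlapped those of the 50 genes with a tract. The widest H3K4me3 peak had a median of 5519 bp (2466 to 8477 bp) without a tract and 5953 bp (3200 to 10410 bp) with one, and the highest H3K27ac score had medians of 2182 (259 to 3100) and 1814 (414 to 3155). Genes with wide and with narrow peaks were found in both groups.

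Other promoter letters were searched in the 300 bases from 250 before to 50 after the start, or in the part named. CTTTCC on the gene's strand within 20 bases of the start, which falls inside many tracts, was present at 16 core genes (25.8%), 2.03% of other genes with both marks and 1.84% of all other genes. TATAAA or TATATA in the 50 bases before the start, on the gene's strand, was present at 6 core genes (9.68%) against 2.17% and 5.02%. On either strand, CCGGAAG, the letters bound by ETS factors, was present at 21 core genes (33.9%) against 21.1% and 14.1%. AAGATGGC, a YY1 motif, was present at 6 (9.68%) against 5.78% and 3.89%. CACGTG, the E-box of MYC and USF factors, was present at 3 (4.84%) against 10.8% and 8.89%, and GGGCGG, a GC box, at 34 (54.8%) against 73.5% and 58.5%. No motif in this list is contained in another. The core promoters had a median GC content of 59.0% and a median of 23 CG dinucleotides, lower than the 66.0% and 27 of other genes with both marks and close to the 62.7% and 22 of all other genes.

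**Figure D1:**
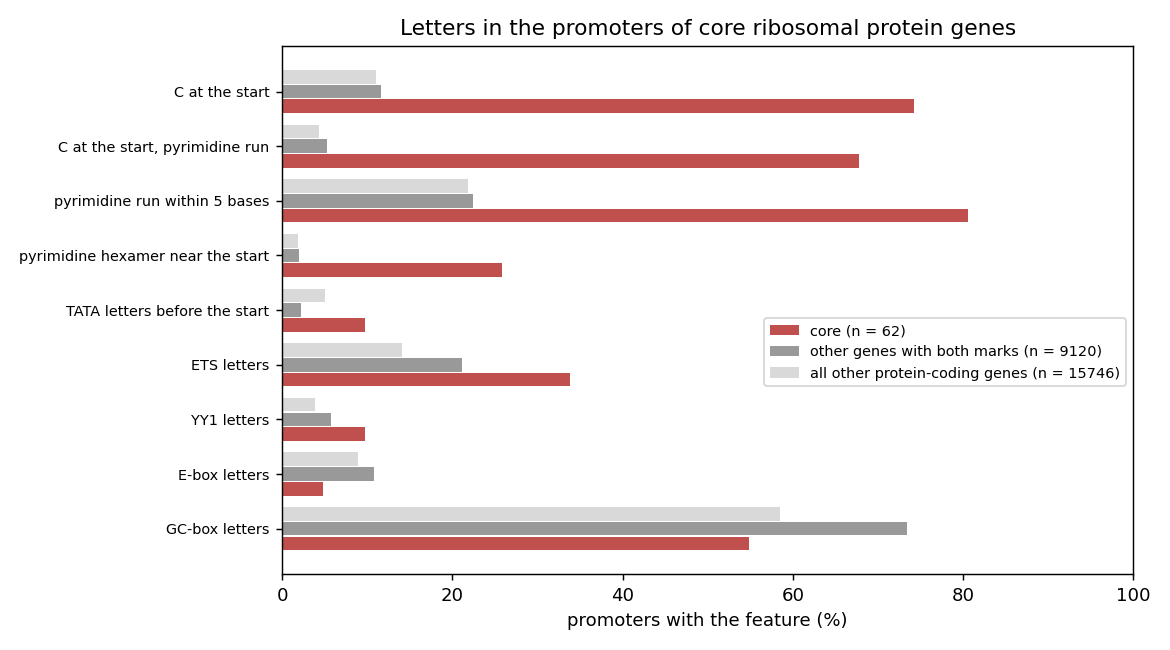
Share of promoters (%, horizontal axis) that hold each sequence feature, for 62 core ribosomal protein genes, 9120 other genes with both marks at the start and all 15746 other protein-coding genes. The bars for a first-base C and for the pyrimidine run stand at 67.7 to 80.6% in the core genes and at 22.4% or less in both other groups, whereas GC-box letters were less frequent in the core genes than in other genes with both marks.

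A mark was called at a gene when a peak overlapped the 1 kb either side of either annotated gene end by at least 1 bp. All 77 core genes had both marks (100%, exact 95% interval 95.3 to 100%), against 57.6% of all protein-coding genes. Among the 9829 other genes with spans as short as those of the core genes (1335 to 27723 bp), 54.7% had both. Counted singly, H3K4me3 was called at 69.5% and H3K27ac at 60.7% of all protein-coding genes. These intervals cover counting error over genes only. No peak was shared between 2 members, so each member contributes its own peaks, and the core genes lie on 21 chromosomes, with 12 on chromosome 19.

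The deposited score, which has no stated unit and piles up at 3100, reached at least 3100 for H3K4me3 at all 77 core genes, where 53.3% of all protein-coding genes did so. It is tied there and cannot rank them for this mark. For H3K27ac it did vary: the highest score at a core gene ran from 259 to 3155 with a median of 2170, while the 11418 other genes with both marks had a median of 688. A score of at least 3100 was reached at 23 core genes (29.9%, interval 19.97 to 41.4%) against 8.37% of all protein-coding genes and 14.2% of the other genes with both marks. By subunit these were 17 of 46 large (37.0%) and 6 of 31 small (19.4%), with median scores of 2334 and 1818. The large-subunit count includes RPL6, whose score came from a peak shared with the neighbouring gene PTPN11. The highest-scoring H3K27ac peak farther inside RPL6, over 1 kb from its ends, had a score of 1459.

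The marked regions at core genes were wide. The widest H3K4me3 peak at a gene end had a median width of 6010 bp, with the middle 50% of genes between 4752 and 6959 bp and a range of 2466 to 13141 bp. The median was 3741 bp at other genes with both marks and 3712 bp at those with spans in the core range. In all, 72 of 77 core genes lay above 3415 bp, the median of genes with the mark (34.7% of all protein-coding genes do), and 36 lay in the widest 10% of genes with the mark, above 6069 bp (6.95% of all protein-coding genes). H3K27ac peaks were narrower: their median was 3674 bp (range 1209 to 13140 bp) against 2075 bp at other genes with both marks. For this mark, 68 of 77 core genes lay above the median of 2040 bp (30.3% of all protein-coding genes) and 24 in the widest 10%, above 5043 bp (6.07% of all protein-coding genes). Large-subunit genes had medians of 6518 bp of H3K4me3 and 4227 bp of H3K27ac, and small-subunit genes 5516 and 2878 bp, with overlapping ranges.

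**Figure D2:**
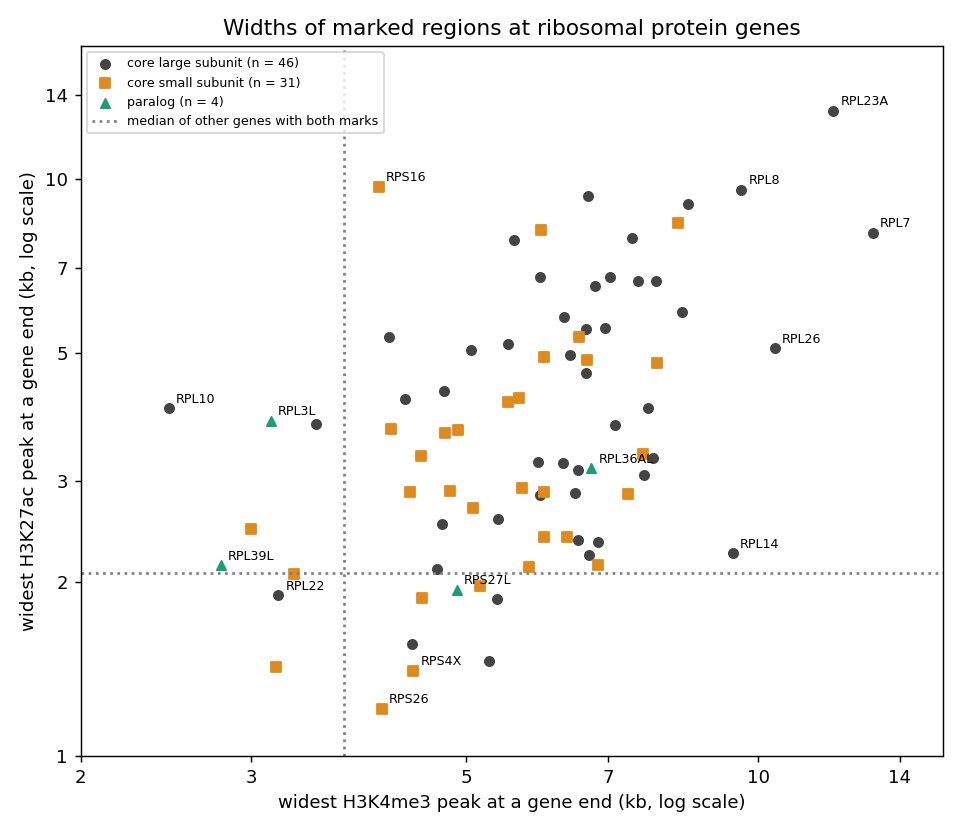
Width of the widest H3K4me3 peak (horizontal axis, kb, log scale) against the widest H3K27ac peak (vertical axis, kb, log scale) at the ends of each member, with 46 large-subunit genes, 31 small-subunit genes and 4 paralogs with peaks; dotted lines are the medians of other genes with both marks, 3741 and 2075 bp. Most core genes lie above both lines, with RPL23A and RPL7 at the upper right and RPS4X and RPS26 at the lowest H3K27ac widths.

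Across the 77 core genes, as a description of points that share the same 2 libraries, the H3K4me3 width went with the H3K27ac width (Spearman's rho 0.46, Pearson's r 0.53) but hardly with the gene's span (rho 0.14, r 0.02). H3K27ac width and H3K27ac score had a rho of 0.67. The H3K27ac peak was the wider of the pair at 12 of 77 core genes (15.6%), near the 13.1% of other genes with both marks.

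H3K27ac lay mostly on H3K4me3. At the core ends there were 91 H3K4me3 and 116 H3K27ac peaks, and 103 of the H3K27ac peaks (88.8%) overlapped H3K4me3, close to the 90.5% at other genes with both marks. Of the H3K4me3 length, 73.5% was also covered by H3K27ac, against 64.6% at other genes with both marks. Fewer H3K27ac peaks were wholly inside H3K4me3 (60 of 116, 51.7%, against 64.2%). Counting both gene ends together, 30 core genes (39.0%) had 2 or more H3K27ac peaks, against 20.8% of all protein-coding genes and 35.1% of those with both marks.

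Where these regions lie was read from the 62 core genes with an annotated start. Both marks were called within 1 kb of the start at 61 of 62 (98.4%, interval 91.3 to 99.96%), against 58.1% of the 15811 protein-coding genes with a start. An H3K4me3 peak covered the start itself at 61 (66.9% of all genes with a start) and an H3K27ac peak at 60 (51.4%). The exceptions were RPL38 and RPL6. At RPL38 (plus strand, start at 74203678 of chromosome 17) the main H3K27ac peak began 5 bp after the start, at 74203683, and ran to 74205244 with a score of 932. RPL6 (minus strand, annotated start at 112411442 of chromosome 12) had no peak over its start. Within its span H3K4me3 covered 112405236 to 112409957, which begins 1485 bp past the start, with H3K27ac at 112408278 to 112409903. A second pair of peaks, H3K4me3 at 112417262 to 112421121 and H3K27ac at 112417619 to 112420147, lay at the higher-coordinate end of RPL6 and also over the end of the neighbouring phosphatase gene PTPN11, so the H3K27ac call at the ends of RPL6 rests on a shared peak.

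The H3K4me3 peak over the start reached farther after the start than before it. The median length after the start was 3877 bp (196 to 8209 bp) and before it 1652 bp at the 61 core genes. Other genes with both marks at the start and spans in the core range had medians of 2162 bp after and 1384.5 bp before. At 57 of 61 core genes (93.4%) the longer side was the transcribed one, against 75.5% of those other genes. H3K27ac had the same asymmetry at a shorter distance, with medians of 2180.5 bp after and 1049 bp before at 60 core genes, against 1177 and 840 bp. At 2000 bp after the start, H3K4me3 was present at all 62 core genes and at 60.9% of 4172 other genes; at 4000 bp the shares were 51.6% and 14.1%. H3K27ac at 2000 bp was present at 67.7% and 27.7%. On the other side, at 2000 bp before the start, the shares for H3K4me3 were 38.7% and 31.1%. The differences in median length from other genes were thus greater on the transcribed side.

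**Figure D3:**
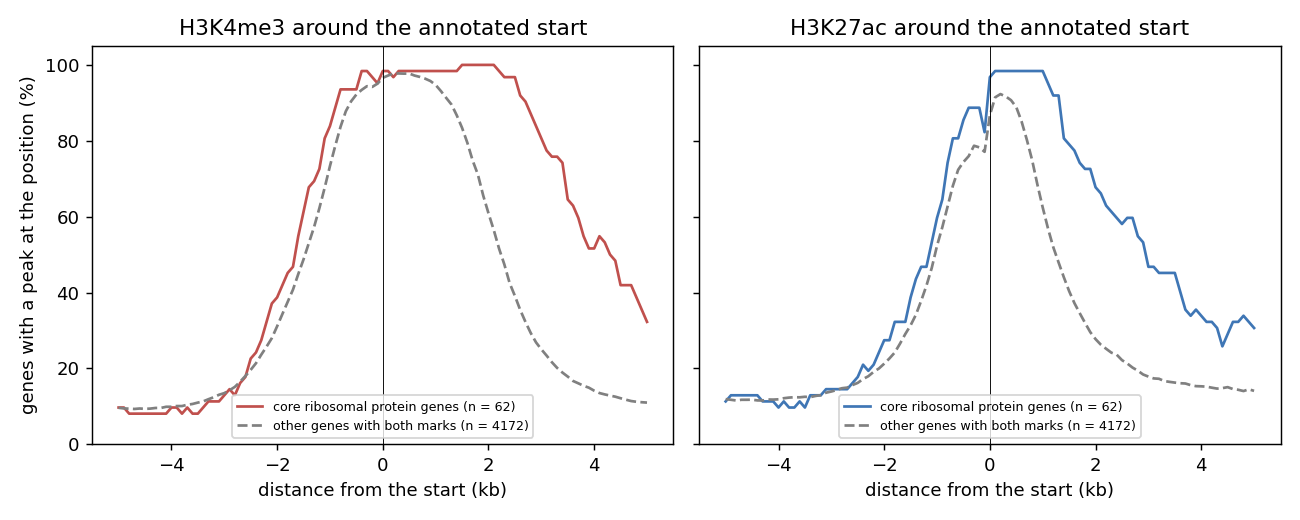
Share of genes (%, vertical axis) with a peak at each 100 bp step from 5 kb before to 5 kb after the annotated start (horizontal axis, kb), for H3K4me3 (left) and H3K27ac (right), at 62 core genes (solid) and 4172 other genes with both marks and spans in the core range (dashed). For H3K27ac the solid line is also higher shortly before the start (80.6% against 68.1% at 700 bp before), and for both marks the lines stand farthest apart beyond 1 kb after it, with 51.6% against 14.1% for H3K4me3 at 4000 bp.

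RPL26, whose protein lies at the rim of the peptide exit tunnel, had the longest reach, with H3K4me3 running 8209 bp past its start and 2200 bp before it. RPL17 followed with 7196 bp after the start and only 436 bp before it, then RPS18 with 6540, RPL13 with 6360 and RPS24 with 6187 bp. The peaks of RPL26, RPL17, RPS18 and RPL13 ran past the far ends of these genes, whose spans are 5678, 3985, 4437 and 6173 bp. Those of RPL26, RPL17 and RPS18 also held ends of other genes, among them KRABD2, C18orf32 and B3GALT4. The shortest were RPL10 with 196 bp, RPS21 with 2144 and RPL22 with 2287 bp. The value of RPL10 reflects a break in the peak call: its H3K4me3 was split by 53 bp into peaks at 154396735 to 154398261 and 154398315 to 154400780 of chromosome X, and joined across gaps of up to 500 bp they span 4046 bp.

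Because core genes are short, with a median span of 5011 bp against 24190 bp for all protein-coding genes, this reach took the mark across much of each gene. H3K4me3 covered a median of 90.7% of the span and the whole of it at 31 of 77 core genes (40.3%). Other genes with both marks and spans in the core range had a median of 22.4%, and 5.21% of them were wholly covered, but their median span was longer, at 11528 bp. H3K27ac covered a median of 63.7% of core spans and the whole of 14 (18.2%), against 17.8% and 2.74%. Within 1 kb of the far end, the annotated gene end opposite the start, H3K4me3 was present at 40 of 62 core genes (64.5%, interval 51.3 to 76.3%). The share was 12.5% of all genes with a start. H3K27ac was present there at 36 (58.1%), against 17.1%. Where no H3K4me3 peak at either end held another protein-coding gene end, H3K4me3 was near the far end at 19 of 37 core genes (51.4%). The share at other genes under the same condition was not computed, so this value has no background beside it. At some genes, such as RPL4, RPL27A, RPL35A and RPS23, the far-end call came from a separate H3K4me3 peak. A single H3K4me3 peak covered start and far end alike at 23 of 62 core genes (37.1%), against 2.31% of all genes with a start and 5.32% of other genes with both marks there and spans in the core range.

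Genes were then compared within classes of span. Up to 3 kb, all 13 core genes and 413 of 447 other genes with both marks (92.4%) had H3K4me3 near the far end. From 3 to 5 kb it was present at 13 of 16 core genes (81.3%) and 38.1% of other genes, and from 5 to 7 kb at 12 of 18 (66.7%) and 24.5%. In the longer classes it was present at 1 of 6 (7 to 10 kb) and 1 of 9 (10 to 30 kb) core genes, near the 19.7% and 12.7% of other genes. The first was RPL27A, by a separate peak, and the second RPL6, which had no peak over its annotated start. The length of H3K4me3 after the start was greater at core genes in every class, from 3012 against 2261 bp in the shortest to 4773 against 2143 bp at 5 to 7 kb and 3470 against 2187 bp in the longest. At long members such as RPS24 (22944 bp) the H3K4me3 peak ended well inside the gene.

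**Figure D4:**
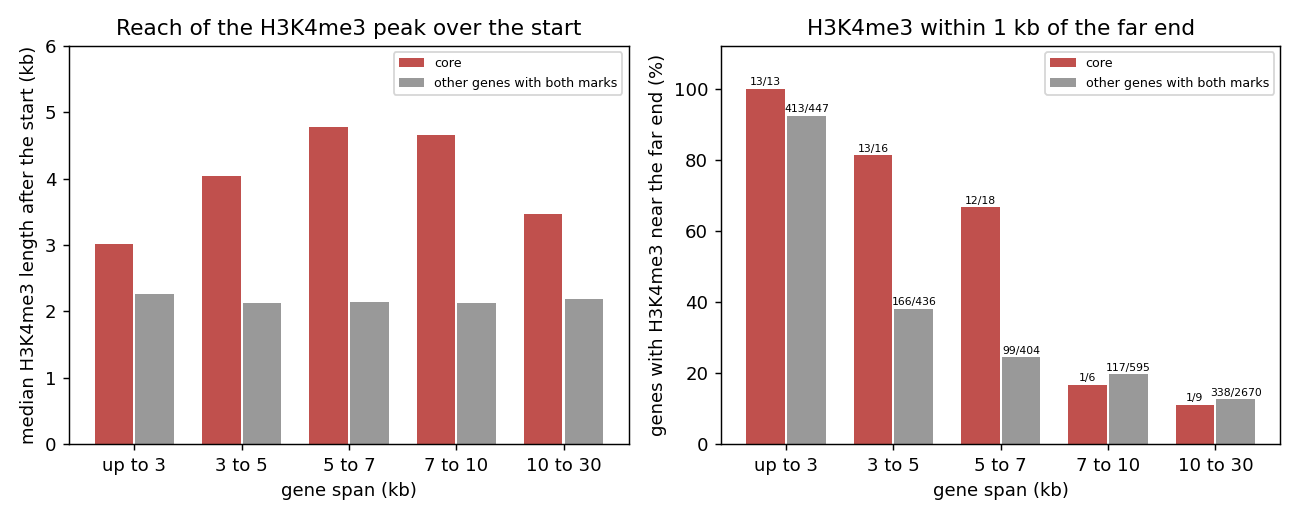
Left, median length of the H3K4me3 peak after the annotated start (kb) by class of gene span (kb); right, share of genes (%) with H3K4me3 within 1 kb of the far end, with counts above the bars, for core genes and other genes with both marks at the start. Core bars are higher in all 5 span classes on the left; on the right the groups stand apart only at 3 to 5 kb (81.3% against 38.1%) and 5 to 7 kb (66.7% against 24.5%).

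At other genes the reach was longer in classes of higher H3K27ac score, so core and other genes were also compared at like scores, taking the highest score within 1 kb of the annotated start rather than at either gene end. With such scores from 300 to 1000 the median H3K4me3 length after the start was 3400.5 bp at 12 core genes and 2198 bp at other genes. From 1000 to 2000 it was 4402 bp (19 core genes) against 2571.5 bp, from 2000 to 3100 it was 3562 bp (13) against 2848 bp, and at 3100 or more it was 4405 bp (16) against 3567 bp. The core median was higher in each of these classes, by the least in the class from 2000 to 3100. At 37 core genes, no H3K4me3 peak within 1 kb of either gene end held an end of another protein-coding gene. Their median H3K4me3 length was 3877 bp after the start and 1477 bp before it.

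**Figure D5:**
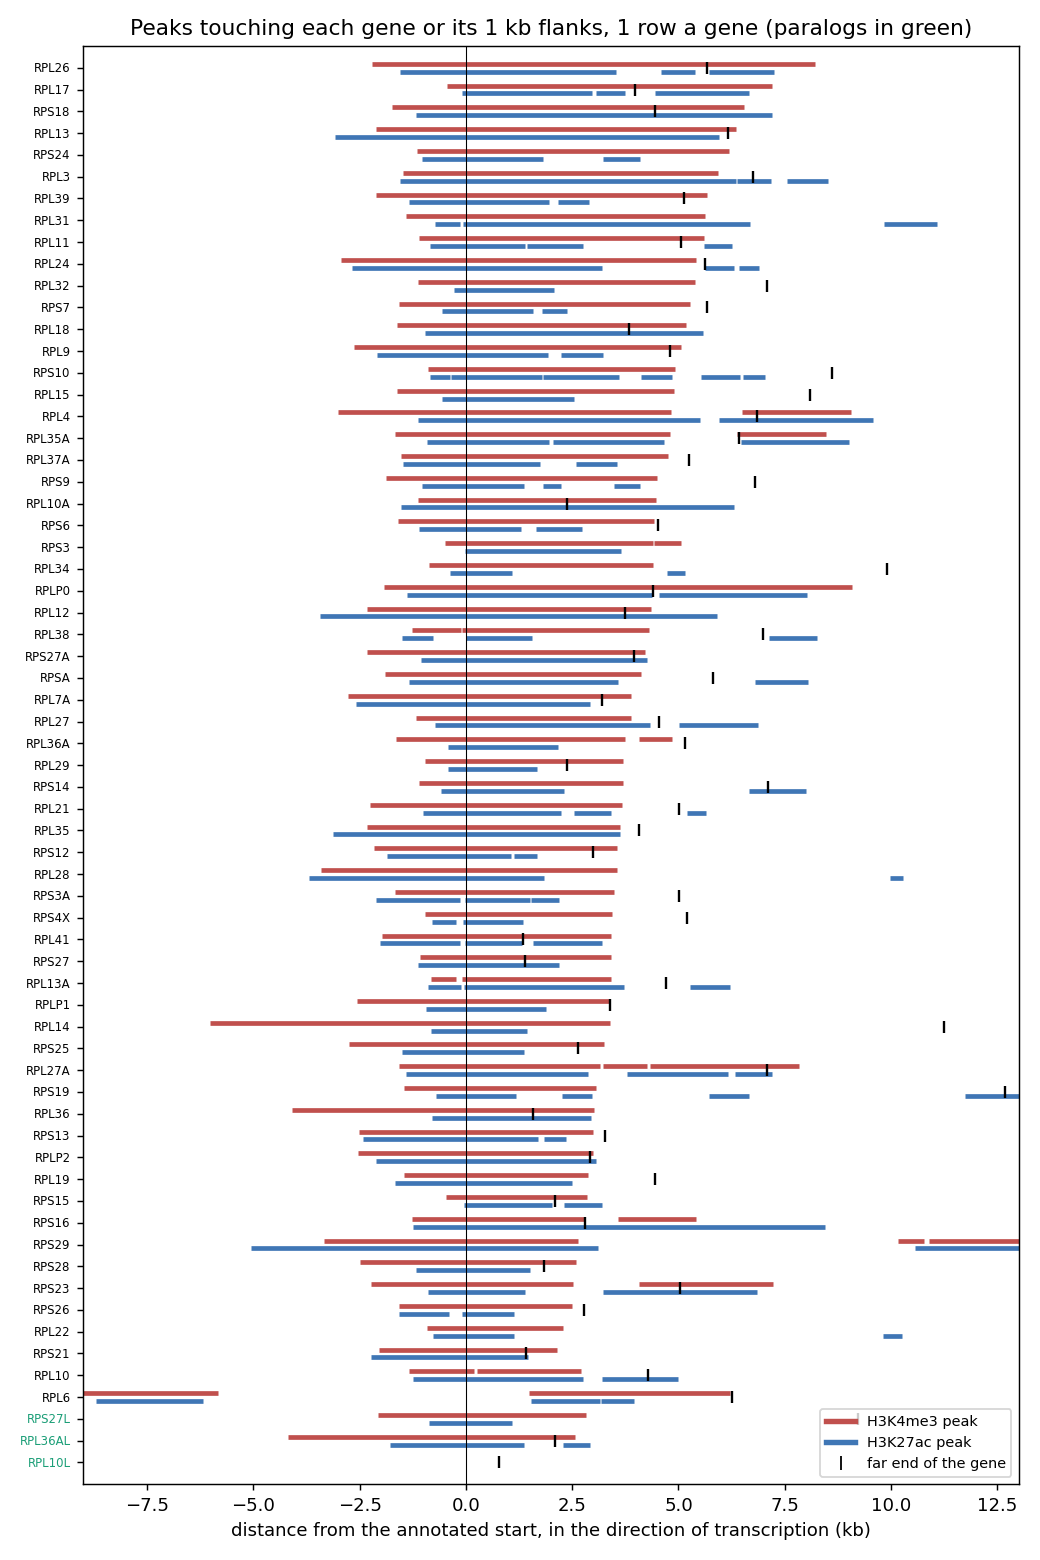
Peaks at each of the 62 core genes and 3 paralogs (green names) with an annotated start, 1 row a gene, by distance from the start in the direction of transcription (horizontal axis, kb), with H3K4me3 in red, H3K27ac in blue and a tick at the gene's far end; a few peaks and far ends run past the edges. Core rows are ordered by how far the H3K4me3 peak over the start reaches, from RPL26 (8209 bp) to RPL10 (196 bp), with RPL6 and the paralogs last.

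The members were then read by their place in the ribosome. RPL5 and RPL11 bind the 5S ribosomal RNA and, outside the ribosome, inhibit MDM2, the ubiquitin ligase of p53. Their H3K4me3 peaks measured 6844 and 6691 bp, and their H3K27ac peaks 2352 and 2232 bp with scores of 1576 and 1366. The stalk that recruits translation factors is built on RPLP0, with RPLP1 and RPLP2 bound to it and RPL12 at its base. H3K4me3 measured 6300 bp at RPLP0, 5953 bp at RPLP1, 5523 bp at RPLP2 and 6682 bp at RPL12. Their H3K27ac peaks were uneven, 5767, 2836, 5182 and 9329 bp in the same order, so RPLP1 had the narrowest acetylated region of the stalk genes and RPL12 the widest.

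Of the genes for proteins at the peptide exit tunnel and its rim (RPL4, RPL17, RPL19, RPL22, RPL23A, RPL26, RPL31, RPL35 and RPL39), the median widths were 7633 bp of H3K4me3 and 5088 bp of H3K27ac. RPL23A, a docking site for the signal recognition particle, and RPL22 lay at opposite ends of this list, with 11958 and 3200 bp of H3K4me3. The RPL23A peak also covered ends of NEK8, RAB34 and TLCD1, whereas the RPL22 peak held no other protein-coding gene end.

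At the mRNA entry of the small subunit, RPS2, RPS3 and RPS9 had H3K4me3 peaks of 7860, 4899 and 6359 bp and H3K27ac scores of 2284, 1513 and 1406. Of the genes at the mRNA exit, RPS3A, RPS14, RPS26 and RPS28 had H3K4me3 peaks of 5165, 4814, 4088 and 5083 bp and H3K27ac scores of 775, 1707, 794 and 1107. Each of these values lies below the core median of its measure. Those of the decoding centre and head (RPS15, RPS18, RPS19, RPS23 and RPS29) had medians of 4752 bp, 3631 bp and 2131. Within that list RPS15 had 3320 bp of H3K4me3 and RPS18 had 8272 bp, a wider spread than that of the list medians, from 4752 bp here to 7633 bp at the exit tunnel.

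RPS6, whose protein is phosphorylated by the S6 kinases downstream of mTOR, had an H3K4me3 peak of 6018 bp and an H3K27ac peak of 2400 bp at a score of 3100. RPS27A, made as a fusion with ubiquitin, had 6531 and 5323 bp at 2359. Several members are mutated in Diamond-Blackfan anaemia, an inherited failure of red cell production. Of these, RPS19, the gene most often affected, had 4501 bp of H3K4me3 and an H3K27ac score of 2131, RPS24 had 7344 bp and 824, RPL35A had 6466 bp and 1623, and RPS7 had 6841 bp and 1425. The 4 X-linked members, RPL10, RPL36A, RPL39 and RPS4X, had a median H3K27ac score of 1513, against 2284 for the 73 autosomal ones, with individual scores of 2005, 2105, 1020 and 259.

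The widest H3K4me3 peaks at core genes were those of RPL7 (13141 bp), RPL23A (11958), RPL26 (10410), RPL8 (9605), RPL14 (9417) and RPL13 (8477). The H3K27ac peaks of these genes measured 8075, 13140, 5088, 9578, 2250 and 9034 bp in the same order. RPL14 and RPL26 combined wide H3K4me3 with H3K27ac scores that were low among core genes, of 978 and 854. Among all protein-coding genes with the mark, these scores lay at percentiles 60.9 and 57.5. The H3K4me3 peak of RPL14 was the only one of this group to lie mostly before the start among those with a start, reaching 6021 bp before it and 3395 bp after. RPL7 shared its peak with an end of RDH10, RPL8 with ZNF34 and RPL26 with KRABD2.

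Among the narrower H3K4me3 peaks were those of RPL10 (2466 bp), RPL22 (3200), RPS15 (3320) and RPL13A (3495). That of RPL13A was split as well: joined across gaps of up to 500 bp it reached 4224 bp, still below the joined core median of 6284 bp. The 12 members on chromosome 19 had a median H3K4me3 width of 4332.5 bp, against 6018 bp for the 65 on other chromosomes.

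RPL35 had the highest H3K27ac score, 3155, over 6758 bp. Of the 22 other core genes at 3100, the widest were RPL23A (13140 bp), RPS16 (9696), RPL8 (9578), RPL12 (9329) and RPL13 (9034). RPS16 had more H3K27ac than H3K4me3, whose widest peak was 4063 bp. The lowest scores were those of RPS4X (259, over 1406 bp), RPL22 (414, 1900 bp), RPS21 (567, 3693 bp), RPS27 (686, 3317 bp), RPL34 (768, 1465 bp) and RPS3A (775, 1972 bp). H3K27ac at RPS26, whose score was 794, was the narrowest of the core genes at 1209 bp. In all, 12 of the 77 core genes had a highest score at either end below 1000. The median of other genes with both marks, given above, also lies below 1000, so such scores are low only among core genes. Like all core genes, each of these 12 had an H3K4me3 score of at least 3100.

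At 31 of 77 core genes (40.3%) an H3K4me3 peak also held an end of another protein-coding gene, against 22% of all protein-coding genes. The share was 42.6% at other genes with both marks and spans in the core range, so core genes did not stand out in this. At RPS10 the only such gene was its own readthrough locus, RPS10-NUDT3. The 31 genes had a median H3K4me3 width of 6682 bp and a median H3K27ac width of 5088 bp, against 5636 and 3019 bp at the other 46. A neighbour in the peak thus went with greater width, mostly of H3K27ac. A wider H3K4me3 peak holds another gene end more readily, so this split is not independent of H3K4me3 width. Other genes with both marks and spans in the core range had median H3K4me3 widths of 4227.5 bp with such a neighbour and 3299 bp without.

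A divergent start of another protein-coding gene within 1 kb was found at 10 of 62 core genes (16.1%), the same share as at other genes with both marks at the start (16.2%). The closest pairs were RPL12 with LRSAM1, 104 bp apart, RPS18 with VPS52, 110 bp, RPS28 with NDUFA7, 121 bp, and RPL9 with LIAS, 134 bp. The DNA between the starts of the 2 closest pairs is shown because 1 peak of each mark covers both genes' starts there, so that the marks cannot be assigned to either gene. Sequences run 5′ to 3′ on the strand of the ribosomal protein gene, and capitals run from the neighbour's first base to the ribosomal protein gene's first base.
RPL12 and LRSAM1, chr9:127451382-127451534, minus strand: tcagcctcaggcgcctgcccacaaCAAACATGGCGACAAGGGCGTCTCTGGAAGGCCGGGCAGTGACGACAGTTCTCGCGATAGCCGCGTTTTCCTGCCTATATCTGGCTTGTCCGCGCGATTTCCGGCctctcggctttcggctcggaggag
RPS18 and VPS52, chr6:33271941-33272099, plus strand: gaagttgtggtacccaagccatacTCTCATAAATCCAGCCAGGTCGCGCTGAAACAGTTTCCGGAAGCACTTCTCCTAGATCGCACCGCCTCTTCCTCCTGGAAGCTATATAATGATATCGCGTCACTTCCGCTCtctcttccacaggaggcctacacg

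Introns of ribosomal protein genes are known hosts of small nucleolar RNAs, which guide the modification of ribosomal RNA. At least 1 annotated snoRNA gene lay within the span of 29 core genes (37.7%, interval 26.9 to 49.4%), 60 snoRNA genes in all, against 1.53% of other genes with both marks and spans in the core range. RPL3, RPL4, RPL7A, RPL13A and RPL23A held 4 each, and RPL17 and RPS12 held 3. Host genes had a median H3K4me3 width of 6399 bp and a median H3K27ac score of 2506, and core genes that host none had 5964.5 bp and 1665.

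Away from promoters, H3K27ac peaks were counted within 50 kb of each gene if they lay over 2.5 kb from all annotated gene ends. The 77 core genes had a mean of 2.08 ± 1.88 (SD over genes), all protein-coding genes 2.97 ± 3.10, and other genes with both marks and spans in the core range 2.77 ± 2.52. None was found at 9 core genes (11.7%), against 17.3% of the last group. RPL3 had the most, with 11, followed by RPL27A with 9.

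The 5 L-suffix paralogs are copies of core genes with restricted known expression in several cases: RPL3L belongs to striated muscle and RPL10L to the testis. Both marks were called at 4 of 5 (80.0%, interval 28.4 to 99.5%), against 57.6% of all protein-coding genes. Where RefSeq gave a promoter, paralog and parent are printed together so that their first bases can be read beside their marks. With 5 bases allowed either side of the start, only RPS27 and RPS27L differ in having a tract. RPL36A and RPL36AL then each have one, and RPL10 and RPL10L have none. The run of RPL36AL is counted from a C before its annotated start, so at the start itself RPL36A has a tract and RPL36AL has none.
RPL10, chrX:154398025-154398089, plus strand: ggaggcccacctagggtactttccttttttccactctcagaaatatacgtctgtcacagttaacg
RPL10L, chr14:46651757-46651821, minus strand: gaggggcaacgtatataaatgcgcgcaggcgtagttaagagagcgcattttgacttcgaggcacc
RPL36A, chrX:101390971-101391035, plus strand: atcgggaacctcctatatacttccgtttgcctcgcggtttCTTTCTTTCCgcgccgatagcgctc
RPL36AL, chr14:49620602-49620666, minus strand: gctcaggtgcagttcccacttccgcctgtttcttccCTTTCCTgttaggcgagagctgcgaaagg
RPS27, chr1:153990722-153990786, plus strand: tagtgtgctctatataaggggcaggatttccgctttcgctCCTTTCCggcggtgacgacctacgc
RPS27L, chr15:63157453-63157517, minus strand: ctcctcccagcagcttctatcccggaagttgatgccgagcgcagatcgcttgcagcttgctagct

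RPL10L (chr14:46651010-46651781, minus strand, 772 bp) had neither mark. Its nearest H3K4me3 peak, 601 bp wide, lay 58902 bp away, and its nearest H3K27ac peak 102198 bp away. Its parent RPL10 had H3K4me3 of 2466 bp, split as given above, and H3K27ac of 4004 bp with a score of 2005.

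RPL36AL (chr14:49618530-49620626, minus strand) was marked like a core gene, with H3K4me3 of 6732 bp over its whole span and H3K27ac of 3151 bp at a score of 1339. Its parent RPL36A had 5394 bp, 2577 bp and 2105. The annotated starts of RPL36AL and the glycosyltransferase gene MGAT2 are divergent and 173 bp apart, and the 2 genes share these peaks. RPS27L (chr15:63148249-63157477, minus strand), known as a p53 target, had no tract, 4885 bp of H3K4me3 and 1944 bp of H3K27ac at a score of 449. RPS27, its parent, had a tract, 4489 bp of H3K4me3 and 3317 bp of H3K27ac at 686.

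RPL39L (chr3:187120948-187139496) had H3K4me3 of 2790 bp and H3K27ac of 2140 bp at a score of 1143 at its higher-coordinate end and a further H3K27ac peak of 466 bp at the lower one. Its parent RPL39 had 7790 bp, 3285 bp and 1020. RPL3L (chr16:1943974-1954689) had marks at its lower-coordinate end only. They were an H3K4me3 peak of 3144 bp that covered 2.15% of its span and an H3K27ac peak of 3812 bp that covered none of it. Both lay over the start of the neighbouring selenoprotein gene MSRB1, and no peak was called at the other end. RPL3 had 7417 bp of H3K4me3, 7901 bp of H3K27ac and a score of 3100. The call at RPL3L therefore cannot be told apart from that of MSRB1.

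Close relatives whose names fall outside the rule were examined beside the members. RACK1, a scaffold protein bound to the small subunit, had both marks, 13602 bp of H3K4me3 and 11509 bp of H3K27ac at a score of 3100. Its H3K4me3 peak was wider than that of any core gene. FAU, which encodes a small-subunit protein fused to a ubiquitin-like one, had 5664 and 3159 bp at 1361. RPL7L1 had 5483 and 5030 bp at 1439, and RPL22L1 had 5292 and 3036 bp at 1619. RPL26L1 had no peak within 1 kb of its annotated ends. Inside its span it had H3K4me3 of 4312 bp and H3K27ac of 1796 bp, over an annotated start that lies there.

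Genes of translation and ribosome assembly carried the marks nearly as often. Of 44 such genes, 42 had both marks (95.5%), against 57.6% of all protein-coding genes. All 20 elongation and initiation genes had both, with medians of 5741.5 bp of H3K4me3, 3123.5 bp of H3K27ac and a score of 1898. All 6 RNA polymerase I genes had both, with medians of 5492.5 bp, 2760.5 bp and 611. Of the 18 assembly genes 16 had both, with medians of 5402.5 bp, 2685 bp and 1353, while BYSL and PES1 had neither at their ends. BYSL and PES1 did have H3K4me3 of 6302 and 2261 bp inside their spans, over annotated starts there. The list's median of 5486.5 bp of H3K4me3 lies below the core median of 6010 bp and above the 3741 bp of other genes with both marks.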

How the data were processed

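H3K27ac and H3K4me3 were each measured in 1 library of HCC1599 cells, with 1 input library that has no peak list of its own here. Formaldehyde-fixed chromatin was cut by sonication and micrococcal nuclease, per the labels' protocols. The submitters' processing notes name Bowtie2, MACS 1.4 and the build hg38; other settings are not given in the sources used here. The authors deposited, for each mark, peak positions and a score whose unit is not stated; it runs from 30 to 3233 and was used only to rank or filter peaks within a list. Of the peaks, 72894 and 32043 on chromosomes 1 to 22 and X were used, with starts made 1-based. Gene ends came from RefSeq GRCh38.p14 (59094 genes of any kind), and strand and annotated start from its promoter table, matched for 15811 protein-coding genes. A peak was assigned to a gene with at least 1 bp within 1 kb of either end; 83.8% of annotated starts lie at a gene end. Intervals are exact Clopper-Pearson 95% intervals. In simulated peaks, 200 genes were planted with either, both or neither mark, and the code's calls at all 19970 genes showed 0 differences from a direct count. Python 3.11.15, numpy 2.4.6, pandas 2.3.3 and scipy 1.17.1 were used. Named genes were each paralog with its parent, core genes lacking a mark, the 6 widest and narrowest H3K4me3 peaks, the 6 highest and lowest H3K27ac scores, the role lists, and hosts and neighbours; genes singled out by reach, distal peaks and a peak not over the start were added after their values were seen. Members and lists were chosen with earlier results of these data known. Some items are not reported here.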

Additional observations from a re-analysis of the deposited data

How the results depend on the processing

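The share of core genes with both marks was 100% in all 5 settings: scores of at least 100, windows of 500 bp or 2.5 kb, peaks anywhere in the span, and the values reported. For all protein-coding genes the share moved from 57.6% to 50.5% with scores of at least 100, 56.0% within 500 bp, 60.6% within 2.5 kb and 68.2% with any peak in the span. The translation and assembly list moved from 95.5% to 100% with any peak in the span. Joining peaks across 500 bp raised the core medians to 6284 bp of H3K4me3 and 4908 bp of H3K27ac. The share of core genes with H3K4me3 near the far end, 64.5%, was 61.3 to 64.4% in 3 settings chosen after seeing the data. No paired analysis was possible because each mark has 1 library; for the same reason no replicate could be left out. Read depth is unknown, so a gene without a peak may hold signal under the caller's threshold.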
